A study of Mus musculus with 48 samples.

Results

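Insulin receptor signalling genes were followed over the 4 groups of the study: the insulin receptor gene Insr, the adaptors Sh2b2, Irs1 and Irs2, the phosphoinositide 3-kinase subunit gene Pik3r1, the kinase genes Akt1 and Akt2, and Tbc1d4 and Slc2a4, which act on glucose uptake. They were taken as a list by symbol, mapped from the Ensembl identifiers of the deposited count table. The rule for the list uses no measured value, but the list was chosen with earlier results of these data known. Its shares of called genes are therefore descriptions. All 9 of 9 were measured among 14125 genes, and all 9 passed the filter on low counts that left 12592 genes to test. RNA came from mixed gastrocnemius, a hindlimb muscle, of male C57BL6J mice and was counted by QuantSeq sequencing of transcript 3′ ends in 48 libraries. EtOH_CON (n = 10) was the vehicle group, with 1% ethanol in the drinking water and the control diet. EtOH_ATGLi (n = 10) had the same water, and its food held atglistatin at 571 mg/kg. Atglistatin inhibits adipose triglyceride lipase (ATGL), the enzyme that begins the release of fatty acids from stored fat. Cort_CON (n = 14) had water with 100 ug/ml corticosterone, the main glucocorticoid of mice, and the control diet, and Cort_ATGLi (n = 14) had corticosterone and atglistatin. Both treatments lasted 2 weeks. The labels give no ages, no genetic change, and no statement that each library is 1 mouse or that the corticosterone water held ethanol. An inhibitor in the food reaches the whole animal, so an effect in muscle cannot be told apart from one through fat or liver. The p-values set differences against the spread between these libraries.

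Insulin binds its receptor on the muscle fibre, and the receptor, a tyrosine kinase, phosphorylates the insulin receptor substrates IRS1 and IRS2. These recruit phosphoinositide 3-kinase, whose regulatory subunit p85 is encoded by Pik3r1, and the lipid it makes leads to activation of the kinases AKT1 and AKT2. AKT phosphorylates TBC1D4 (also called AS160), which then releases its hold on vesicles that carry the glucose transporter GLUT4, encoded by Slc2a4, to the cell surface. SH2B2 (also called APS) is an adaptor that binds the activated receptor. Skeletal muscle takes up much of the glucose that insulin clears from the blood, and glucocorticoids in excess are known to lower that uptake. Transcript levels say nothing of phosphorylation, which carries the signal.

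Total counts per library ran from 10453888 to 24034481. Levels are given in CPM, counts relative to the TMM-scaled library total, with no correction for gene length, so levels are compared between libraries and never between genes. Of 10 skeletal muscle fibre markers all 10 were measured, and their summed level was 76521 to 139807 CPM. The labels carry an insulin and a fed glucose value for each library, without units. In EtOH_CON the insulin label ran from 1.19 to 3.46 (median 2.39), and in EtOH_ATGLi its median was lower, 1.03 (0.464 to 2.05). The median was 37.8 in Cort_CON (9.31 to 39.8) and 13.8 in Cort_ATGLi (2.19 to 36.0). Median fed glucose was 134, 119, 265 and 115 in the same order, and 9 of the 14 Cort_CON libraries are labelled diabetic. Some libraries stood apart. EtOH_CON p01 and Cort_ATGLi p41 (names from the sample titles) correlated least with their own groups, with a median r of 0.952 and 0.957. Cort_CON p32, p33 and p34 had the 3 lowest insulin labels of their group, at 14.5, 9.31 and 16.8, and all 3 had a log2 CPM of the immunoglobulin gene Ighm of 5.33 to 5.44, against 0.02 to 3.6 in the other 11. Where leaving out p01 and p41 together, or p32, p33 and p34 together, changed a call of the 9 genes, both values are given.

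Corticosterone on the control diet moved the genes of the pathway in different directions. Pik3r1, Sh2b2, Tbc1d4 and Insr rose and Irs1 fell, while Irs2, Akt1, Akt2 and Slc2a4 did not pass the test. These 5 of 9 genes compare with 38.4% of the 12592 genes tested that passed in this comparison (Cort_CON against EtOH_CON, edgeR's quasi-likelihood test, Benjamini-Hochberg adjusted p below 0.05). The 4 that rose compare with 18.9% of all genes and the 1 that fell with 19.5%. The median log2 change of the 9 genes was 0.18, and that of all genes tested was -0.00.

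**Figure D1:**
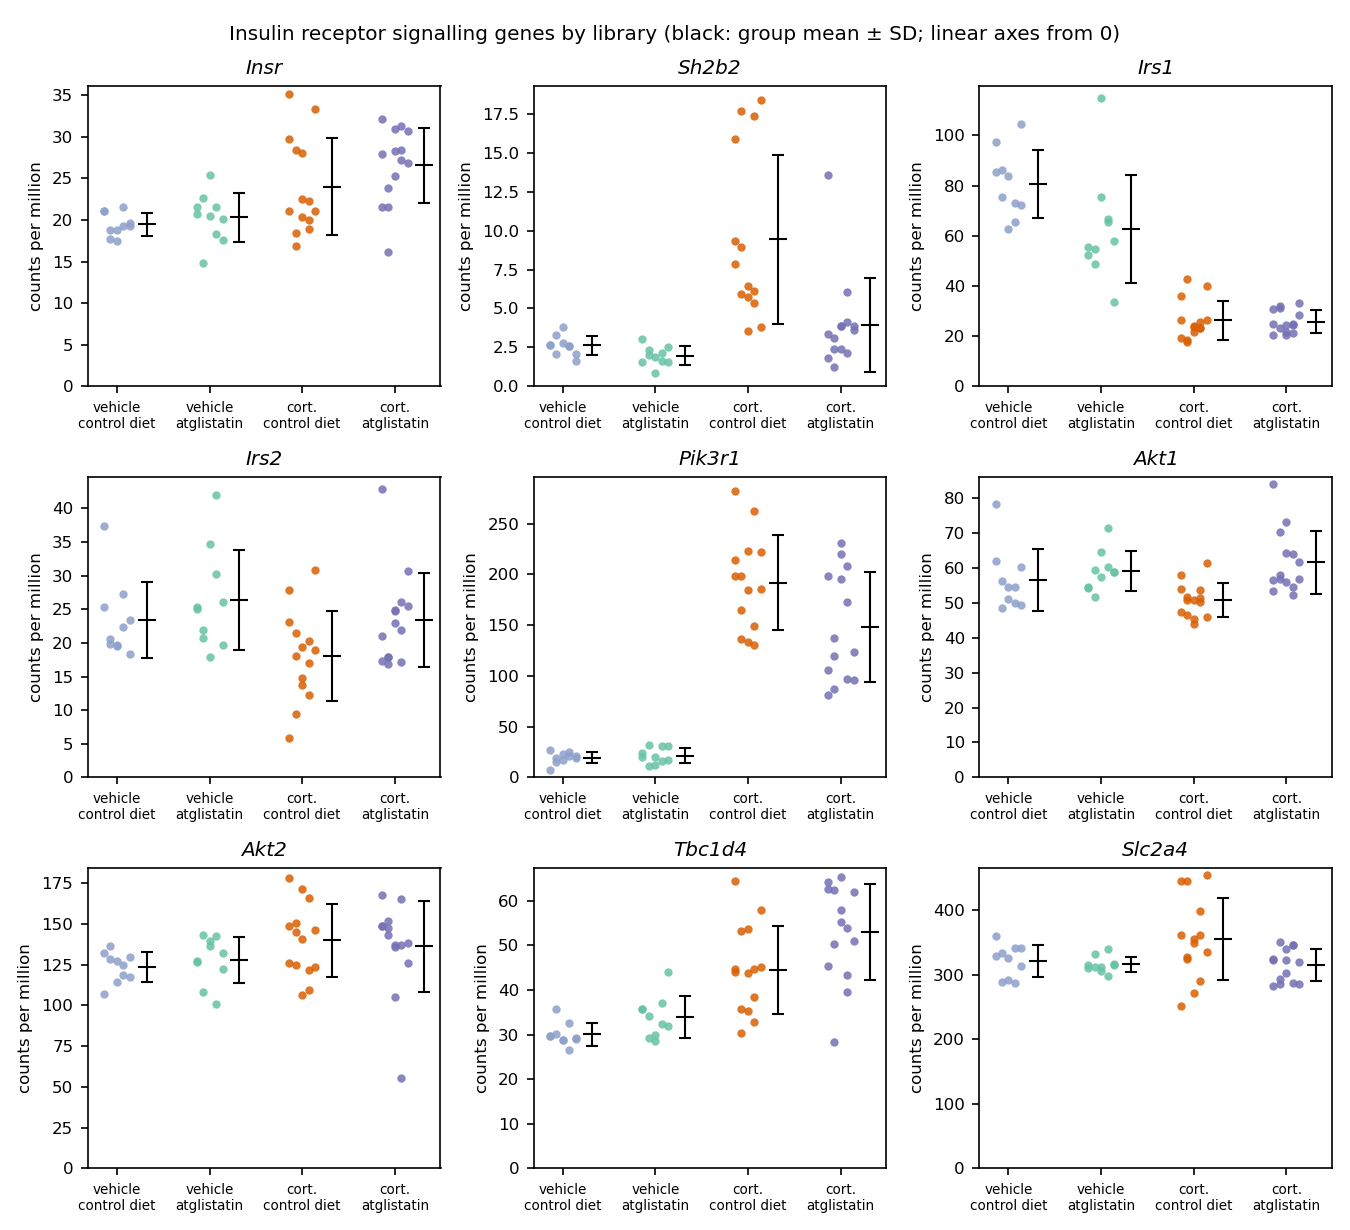
Normalised level (CPM, axis from 0, own scale for each gene) of the 9 genes in each of 48 libraries, by group, with the group mean ± SD. Pik3r1 lies above the vehicle range and Irs1 below it in all 14 libraries of both corticosterone groups, while the groups overlap for the other 7 genes. The share of all genes tested that separate as fully was not counted.

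Pik3r1 had the largest log2 fold change of the 9 genes on both diets. Its level in EtOH_CON was 7.21 to 27.1 CPM (median 20.1, n = 10), and in Cort_CON it was 130.0 to 282.3 CPM (median 191.7, n = 14). Every Cort_CON library lay above every EtOH_CON library. The log2 fold change was 3.30 (SE 0.22, adjusted p = 1.05e-16), a 9.84-fold higher level. On the atglistatin diet the vehicle libraries held 11.2 to 31.6 CPM (median 19.9) and the Cort_ATGLi libraries 81.6 to 231.5 CPM (median 130.1). These groups did not overlap either, and the log2 fold change was 2.78 (SE 0.21, adjusted p = 2.85e-14).

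Irs1, the substrate through which the receptor reaches phosphoinositide 3-kinase in muscle, moved the other way. Its level was 62.7 to 104.5 CPM in EtOH_CON (median 79.7) and 17.7 to 42.8 CPM in Cort_CON (median 23.8), with no overlap between the groups. It fell by 1.61 on the log2 scale (SE 0.14, adjusted p = 6.88e-14), which is a 3.06-fold lower level. The highest of the Cort_CON values, 42.8 CPM, belonged to p34. With atglistatin the vehicle range was wider, 33.7 to 114.9 CPM (median 56.8), and Cort_ATGLi lay below it at 20.4 to 33 CPM (median 24.6). The log2 change on that diet was -1.27 (SE 0.14, adjusted p = 2.00e-10).

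Pik3r1 and Irs1 were the 2 genes of the list whose groups did not overlap on either diet. The share of all genes tested that separate as fully was not counted, so this is a description. The sequence before their start sites is shown, with that of Tbc1d4. The Tbc1d4 window was the only one that held AGAACA, the core of the glucocorticoid receptor's binding motif. Pik3r1 lies on chr13:101680563-101768217, minus strand (GRCm38), and the annotation gives it 4 coding transcripts with 4 starts and 1 stop position. Alternative starts of this gene are known to give proteins of different length, but the lengths for these 4 were not read here. Counts of 3′ ends were not split by start. Irs1 lies on chr1:82233101-82291416 (minus strand) with 2 exons. Its last exon overlaps an annotated gene on the opposite strand, Gm9747, which the count table does not list, and the sources used here do not state whether strand was used in counting. Tbc1d4 lies on chr14:101442360-101609191 (minus strand). RefSeq's GRCm38.p6 promoter table gave 12 windows of the 250 bases before a start for 7 of the 9 genes. The letters AGAACA, searched on both strands, were in 1 of the 12 windows and in 16.1% of 32851 windows of that length. GTAAACA, a FoxO site, was in 1 (Akt1) and in 3.17% of all, and the E-box CAGCTG in 1 (Akt2) and in 13% of all. None of the 3 motifs overlaps another in these windows, and a match describes letters, not binding. The windows are given 5′ to 3′ on the gene's strand. Capitals mark AGAACA, which begins 214 bases before the Tbc1d4 start.
Pik3r1, start 1, chr13:101768218-101768467: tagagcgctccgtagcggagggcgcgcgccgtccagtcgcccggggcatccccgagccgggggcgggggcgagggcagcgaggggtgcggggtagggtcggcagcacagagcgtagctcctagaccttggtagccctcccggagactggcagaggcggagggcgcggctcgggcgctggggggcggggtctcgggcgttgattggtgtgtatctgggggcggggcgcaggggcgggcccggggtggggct
Pik3r1, start 2, chr13:101692631-101692880: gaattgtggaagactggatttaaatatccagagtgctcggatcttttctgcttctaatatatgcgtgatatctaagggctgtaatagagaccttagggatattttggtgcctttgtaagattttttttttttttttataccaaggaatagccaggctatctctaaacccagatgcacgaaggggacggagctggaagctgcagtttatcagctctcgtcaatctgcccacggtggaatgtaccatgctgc
Irs1, chr1:82291440-82291689: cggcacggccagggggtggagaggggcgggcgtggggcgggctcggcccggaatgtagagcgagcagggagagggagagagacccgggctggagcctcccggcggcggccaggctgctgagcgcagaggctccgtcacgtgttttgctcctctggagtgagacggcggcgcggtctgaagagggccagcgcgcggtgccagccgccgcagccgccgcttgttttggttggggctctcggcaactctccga
Tbc1d4, chr14:101609192-101609441: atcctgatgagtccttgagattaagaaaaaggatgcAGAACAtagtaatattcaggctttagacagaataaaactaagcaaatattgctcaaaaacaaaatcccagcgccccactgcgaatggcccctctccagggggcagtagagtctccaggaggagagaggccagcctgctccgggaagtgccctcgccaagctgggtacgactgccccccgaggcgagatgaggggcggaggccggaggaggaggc
The 2 Pik3r1 windows differed in base composition, with 76.4% G and C before the outer start and 42.4% before the inner one. The Irs1 window held 72.4% and the Tbc1d4 window 54.8%.

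At the receptor, Insr (chr8:3122061-3279617) rose on both diets by a small amount. Its level was 17.4 to 21.5 CPM in EtOH_CON (median 19.3) and 16.8 to 35.1 CPM in Cort_CON (median 21.7), and 7 of 14 corticosterone libraries exceeded the vehicle range. The log2 fold change was 0.30 (SE 0.10, adjusted p = 0.0158), and without p32, p33 and p34 it was 0.26 with an adjusted p of 0.0566, so the call on the control diet was lost. It was also lost without Cort_CON p45 (adjusted p = 0.05002) and with only the nondiabetic Cort_CON libraries kept (0.25, adjusted p = 0.120). On the atglistatin diet Insr went from 14.8 to 25.4 CPM (median 20.6) in vehicle to 16.1 to 32.2 CPM (median 27.5) with corticosterone. There 9 of 14 libraries exceeded the vehicle range, and the log2 fold change was 0.39 (SE 0.10, adjusted p = 0.00252).

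Sh2b2 (chr5:136218147-136246556) had the lowest counts of the list, 10 to 296 per library, so its values are the least precise. It was 1.64 to 3.81 CPM in EtOH_CON (median 2.65) and 3.54 to 18.4 CPM in Cort_CON (median 7.14). Of 14 corticosterone libraries 13 lay above the vehicle range, and p32, p34, p36 and p33 were the highest at 18.4, 17.7, 17.4 and 15.9 CPM. The log2 fold change was 1.84 (SE 0.30, adjusted p = 2.15e-06), and it was 1.46 (adjusted p = 3.46e-05) without p32, p33 and p34. On the atglistatin diet the levels were 0.846 to 3.03 CPM in vehicle (median 1.95) and 1.23 to 13.6 CPM with corticosterone (median 3.47), the highest being p41. The log2 fold change there was 1.03 (SE 0.31, adjusted p = 0.00908), with 9 of 14 libraries above the vehicle range. Without p01 and p41 it was 0.71 (adjusted p = 0.0415), and by limma voom it did not pass (0.87, adjusted p = 0.0732).

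Tbc1d4, the AKT substrate that restrains GLUT4 vesicles, rose on both diets. It was 26.6 to 35.8 CPM in EtOH_CON (median 29.4) and 30.4 to 64.4 CPM in Cort_CON (median 44.3), with 10 of 14 libraries above the vehicle range. The log2 fold change was 0.57 (SE 0.11, adjusted p = 1.67e-05). With atglistatin the range was 28.6 to 44.1 CPM in vehicle (median 33.3) and 28.4 to 65.4 CPM with corticosterone (median 54.5). There 11 of 14 libraries exceeded the vehicle range, and the log2 change came to 0.65 (SE 0.11, adjusted p = 2.55e-06).

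The transporter gene itself, Slc2a4 (chr11:69942539-69948188), showed no called change. It was 287.7 to 359.8 CPM in EtOH_CON (median 327.6) and 251.9 to 455.3 CPM in Cort_CON (median 352.3), so corticosterone libraries lay on both sides of the vehicle range, 6 above it and 2 below. The log2 difference was 0.15 (adjusted p = 0.106). On the atglistatin diet it was -0.00 (adjusted p = 0.970) with a 95% interval of -0.15 to 0.14, between 298.4 to 340.0 CPM (median 313.8) and 282.2 to 350.3 CPM (median 321.3). When only the nondiabetic Cort_CON libraries, which include p32 and p33, were set against EtOH_CON, the difference was 0.31 (adjusted p = 0.00157). Without p32, p33 and p34 it was 0.03 (adjusted p = 0.748).

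With all libraries kept, Akt1, Akt2 and Irs2 did not pass the test on either diet. Akt1 (chr12:112653821-112674884) was 48.4 to 78.4 CPM in EtOH_CON (median 54.6) and 44.0 to 61.6 CPM in Cort_CON (median 50.9), a log2 difference of -0.15 (adjusted p = 0.10002). It passed without p32 alone (adjusted p = 0.0411) but not without p32, p33 and p34 together (-0.17, adjusted p = 0.0846). With atglistatin the vehicle libraries held 51.7 to 71.6 CPM (median 58.9) and the corticosterone libraries 52.4 to 84.1 CPM (median 57.5), a difference of 0.06 (adjusted p = 0.607). The groups overlapped on both diets. Akt2 (chr7:27591552-27640826), the form tied most to glucose uptake, was 106.8 to 136.1 CPM in EtOH_CON (median 126.2) and 106.4 to 178.1 CPM in Cort_CON (median 142.8). Its log2 difference was 0.18 with a 95% interval of -0.02 to 0.37 (adjusted p = 0.151). In the atglistatin groups it was 100.7 to 143.2 CPM in vehicle (median 129.5) and 55.6 to 167.7 CPM with corticosterone (median 140.6), a difference of 0.09 (adjusted p = 0.524). The lowest Cort_ATGLi value was that of p18, and the next lowest was 105.3 CPM.

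Irs2, the second substrate of the receptor in muscle, lies on chr8:10984681-11008458 (minus strand). It was 18.3 to 37.4 CPM in EtOH_CON (median 21.5) and 5.86 to 30.8 CPM in Cort_CON (median 18.5), a log2 difference of -0.37 (SE 0.18, adjusted p = 0.0977). The ranges overlapped, with 7 of 14 Cort_CON libraries below the lowest EtOH_CON value. Without p32, p33 and p34 the Irs2 difference was -0.57 (SE 0.18, adjusted p = 0.00844), and it passed, as it did without p32 alone or p33 alone. With atglistatin, Irs2 was 17.8 to 42 CPM in vehicle (median 25.1) and 16.9 to 42.8 CPM with corticosterone (median 22.4), nearly the same range. The log2 difference there was -0.16 (adjusted p = 0.529).

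On the atglistatin diet the same 5 genes passed, 4 higher and 1 lower, where 30% of all genes passed, 15% in each direction. The median log2 change of the 9 genes was 0.09 there and that of all genes -0.00. Each of the 4 that rose on the control diet also rose with atglistatin, and Irs1 fell on both. No interaction of corticosterone with diet passed for any of the 9 by edgeR, with 0.0397% of all genes (5 genes) past the threshold. None of the 9 had an unadjusted p below 0.05 by edgeR, against 695 of the 12592 genes tested. By limma voom and DESeq2 no member passed either. The lowest unadjusted p was that of Akt1 (interaction 0.21, SE 0.11, p = 0.0504, adjusted p = 0.909), followed by Sh2b2 (-0.81, SE 0.43, p = 0.0625, adjusted p = 0.922) and Pik3r1 (-0.52, SE 0.28, p = 0.0682, adjusted p = 0.927). A p above the threshold does not show that the diets act alike.

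**Figure D2:**
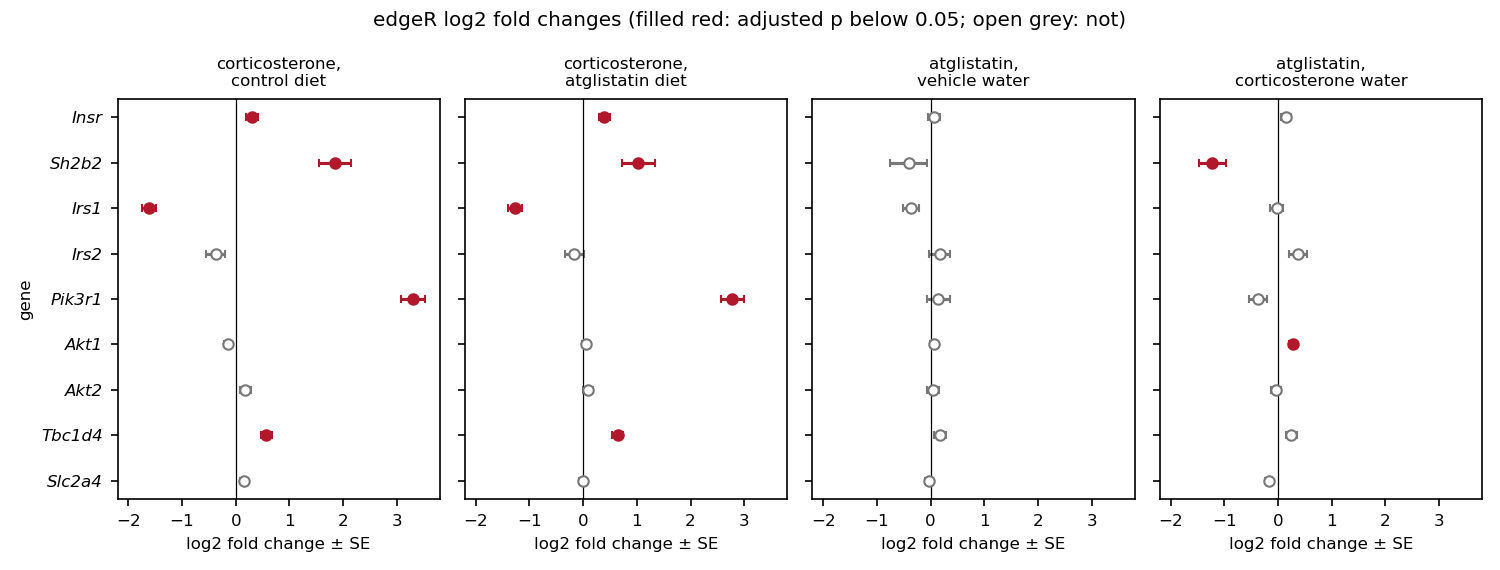
Log2 fold change ± SE of the 9 genes in 4 pairwise comparisons, from edgeR. Filled red points have an adjusted p below 0.05: the same 5 genes in both corticosterone comparisons, none for atglistatin in vehicle mice, and Sh2b2 (-1.22) and Akt1 (0.28) for atglistatin under corticosterone.

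Markers of other cell types moved with corticosterone as well. Of 6 markers of fibro-adipogenic progenitors 5 fell in both corticosterone comparisons, and their summed level had medians of 994.4, 952.0, 605.1 and 656.9 CPM in the 4 groups, in the order of the opening. Of 5 endothelial markers 4 fell on both diets. Of 5 erythroid markers 4 rose on the control diet and 1 with atglistatin, and of 7 adipocyte markers 2 fell and 1 rose on the control diet while 2 rose and 0 fell with atglistatin. Of 4 smooth muscle and pericyte markers 2 fell on the control diet and 0 with atglistatin. Of 4 tendon markers 2 fell and 1 rose on the control diet, and 3 fell and 1 rose with atglistatin. Of 10 muscle fibre markers 5 rose on the control diet and 4 with atglistatin. In a bulk sample fewer cells of a type and less RNA per cell cannot be told apart, and the part of these shifts in the values above was not tested. All 6 of the glucocorticoid receptor target genes used as a check of the treatment labels (Fkbp5, Tsc22d3, Per1, Zbtb16, Cdkn1a and Klf9) rose on both diets.

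Atglistatin under vehicle moved none of the 9 genes past the threshold. The comparison of EtOH_ATGLi with EtOH_CON called 0.0238% of all genes, 3 in number, by edgeR, 30 by limma voom and 38 by DESeq2, with no member in any of them. By edgeR 1 member had an unadjusted p below 0.05, as did 839 of the 12592 genes tested. That member was Irs1, with a median of 56.8 CPM against 79.7 and 6 of 10 libraries below the lowest EtOH_CON value. Its log2 difference was -0.37 (SE 0.15, p = 0.0160, adjusted p = 0.599). The median log2 change over the 9 genes was 0.06, against -0.00 over all genes.

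Under corticosterone, atglistatin lowered Sh2b2 and raised Akt1. These 2 of 9 compare with 1.60% of all genes that passed in Cort_ATGLi against Cort_CON, 0.667% higher and 0.929% lower. Sh2b2 had a median of 3.47 CPM with atglistatin and 7.14 without it, and 13 of 14 Cort_ATGLi libraries lay below the Cort_CON mean, 7 of them below its lowest library. It fell by 1.22 on the log2 scale (SE 0.26, adjusted p = 0.00551), a 2.33-fold lower level. The ranges overlapped, and p41, at 13.6 CPM, lay far above the other Cort_ATGLi libraries, whose next highest was 6.03. Without p01 and p41 the difference was -1.53 (adjusted p = 5.21e-05). Without p32, p33 and p34 the Sh2b2 difference was -0.85 (SE 0.24, adjusted p = 0.0809) and did not pass, and in a fit of these 2 groups alone it was -1.22 (adjusted p = 0.0653).

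Akt1 was 52.4 to 84.1 CPM in Cort_ATGLi (median 57.5), and all 14 libraries lay above the Cort_CON mean of 50.9 CPM, 6 of them above its highest library. The log2 fold change was 0.28 (SE 0.07, adjusted p = 0.0189), a 1.21-fold higher level, and 0.29 (adjusted p = 0.0341) without p32, p33 and p34. With only the nondiabetic Cort_CON libraries kept it was 0.28 (adjusted p = 0.194). Among the genes that did not pass, Slc2a4 lay below the Cort_CON mean of 355.3 CPM in all 14 Cort_ATGLi libraries, with a log2 difference of -0.17 (SE 0.07, adjusted p = 0.197). The difference was -0.06 without p32, p33 and p34, the libraries that hold the upper end of Cort_CON. It passed with only the nondiabetic Cort_CON libraries kept (-0.35, adjusted p = 0.00392), which include p32 and p33. Irs2 differed by 0.38 (adjusted p = 0.318), Pik3r1 by -0.37 (adjusted p = 0.364), Tbc1d4 by 0.25 (adjusted p = 0.205), Insr by 0.15 (adjusted p = 0.558), Irs1 by -0.03 (adjusted p = 0.970) and Akt2 by -0.04 (adjusted p = 0.931). The median over the 9 was -0.03 and over all genes 0.00. This comparison shares the Cort_CON and Cort_ATGLi libraries with the corticosterone comparisons, so their values are not independent.

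The balance of the paired forms was read within each library, which does not depend on scaling between libraries. The log2 ratio of Irs2 to Irs1 counts, of which only differences between groups are read, was -1.80 ± 0.34 (SD, n = 10) in EtOH_CON and -0.60 ± 0.46 (n = 14) in Cort_CON. The shift towards Irs2 was 1.20, with all 14 Cort_CON libraries above the EtOH_CON mean (permutation test with 100000 resamples, two-sided, p = 1e-05, the smallest they can give, adjusted p = 8e-05 over 8 comparisons). On the atglistatin diet the ratio went from -1.23 ± 0.50 to -0.17 ± 0.41, a shift of 1.06 in the same direction with 14 of 14 libraries above the vehicle mean (permutation adjusted p = 0.00012). Atglistatin also moved the ratio towards Irs2, by 0.57 in vehicle libraries (9 of 10 above the EtOH_CON mean, permutation adjusted p = 0.013) and by 0.43 under corticosterone (12 of 14, permutation adjusted p = 0.018). Neither Irs1 nor Irs2 passed on its own in the latter 2 comparisons, but those tests were adjusted over 12592 genes and the ratios over 8 comparisons. In vehicle libraries the unadjusted p was 0.0160 for Irs1 and 0.376 for Irs2 by edgeR, and 0.0081 for the ratio by permutation. Under corticosterone it was 0.840 for Irs1 and 0.0267 for Irs2 by edgeR, and 0.014 for the ratio by permutation.

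For the ratio of Akt2 to Akt1, 2 of the 4 comparisons passed, both with Cort_CON. Its log2 value was 1.14 ± 0.24 in EtOH_CON, 1.11 ± 0.16 in EtOH_ATGLi, 1.45 ± 0.27 in Cort_CON and 1.12 ± 0.37 in Cort_ATGLi. Corticosterone shifted it by 0.31 towards Akt2 on the control diet (12 of 14 libraries above the vehicle mean, permutation adjusted p = 0.013) and by 0.01 with atglistatin (permutation p = 0.95). Cort_ATGLi lay 0.33 below Cort_CON, with a difference of -0.33 (12 of 14 below, permutation adjusted p = 0.013), and the vehicle groups differed by -0.03 (permutation p = 0.73). The Cort_ATGLi library p18 had a log2 ratio of 0.08, far below the next lowest of its group, 0.89 in p38. Its low value enters both comparisons with Cort_ATGLi, and the ratio was not tested without it. In all, 6 of the 8 differences passed, and the same 6 passed without p32, p33 and p34. Whether the diets differ in the Akt shift was not tested.

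**Figure D3:**
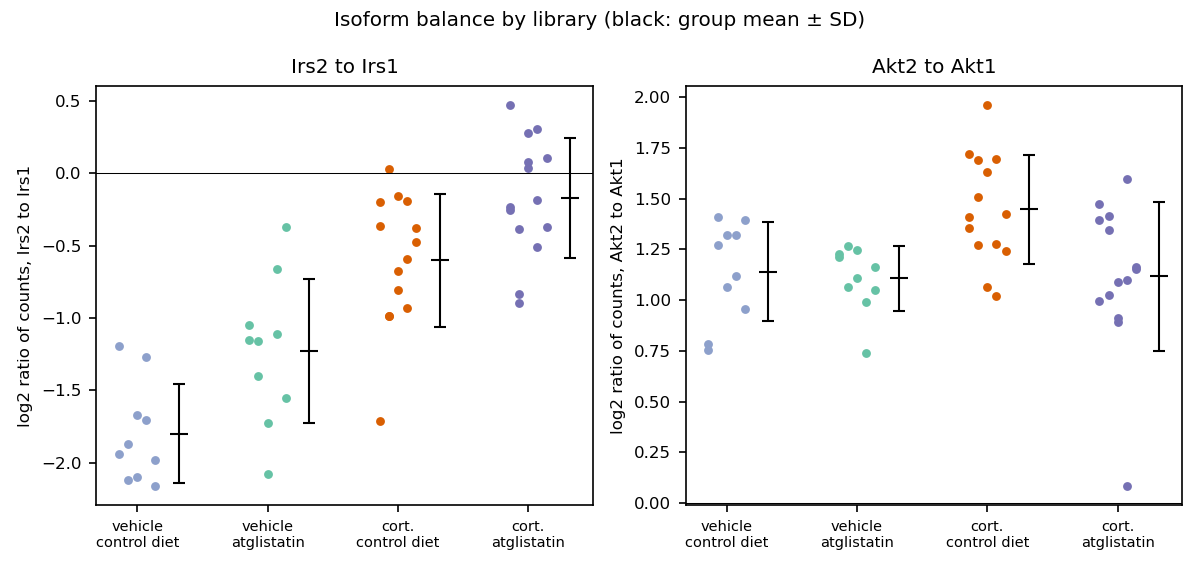
Log2 ratio of counts of Irs2 to Irs1 (left) and of Akt2 to Akt1 (right) in each library by group, with mean ± SD. The Irs2 to Irs1 ratio stands highest in the corticosterone groups (means -0.60 and -0.17), and the Akt2 to Akt1 ratio is highest in Cort_CON (mean 1.45).

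Against the insulin label, only the corticosterone group on the control diet gave called slopes of the 9 genes, and these calls were lost without 3 libraries. The slope is the change in log2 level per log2 unit of the insulin label, fitted within each group. In Cort_CON, Irs1 (-0.50, SE 0.12, adjusted p = 0.0104) and Slc2a4 (-0.25, SE 0.06, adjusted p = 0.0190) were lower at higher insulin by edgeR. These 2 of 9 compare with 2.68% of all genes, 1.52% with a negative slope. Sh2b2 (-0.76, SE 0.22, adjusted p = 0.0521) and Irs2 (-0.51, SE 0.16, adjusted p = 0.0637) lay just beyond the threshold. Both passed without p01 and p41, Sh2b2 with a slope of -0.77 (adjusted p = 0.00601) and Irs2 with -0.52 (adjusted p = 0.0374). With all libraries kept, the Sh2b2 slope passed by limma voom (-0.82, adjusted p = 0.00330). By edgeR it also passed with halved counts (-0.76, adjusted p = 0.0269) and with RLE scaling (-0.76, adjusted p = 0.0489).

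The 3 libraries of lowest insulin, p32, p33 and p34, held Irs1 at 40.1, 35.9 and 42.8 CPM in a group with a median of 23.8. Slc2a4 in the same libraries was 455.3, 445.9 and 445.9 CPM, against a median of 352.3. The other 11 Cort_CON libraries have insulin labels of 27.7 to 39.8, so little of the range is left without the 3. Over all genes the slope then passed for 4, against 337 with all libraries kept. Without the 3 the Irs1 slope was -0.49 with an SE of 0.52 (adjusted p = 0.749), so its size was alike and its error wide. The Slc2a4 slope was then 0.34 (SE 0.27, adjusted p = 0.629), of the opposite sign, and the Sh2b2 slope was -0.04. All 3 libraries also stood apart in Ighm, whose own slope was -1.65 (SE 0.28, adjusted p = 0.000236), and had log2 CPM of the glucocorticoid target Fkbp5 of 8.79 to 8.83 against 7.83 to 8.52 in the others. Tsc22d3, another such target, had a slope of -0.02 (adjusted p = 0.953). The part of these features in the slopes was not tested.

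**Figure D4:**
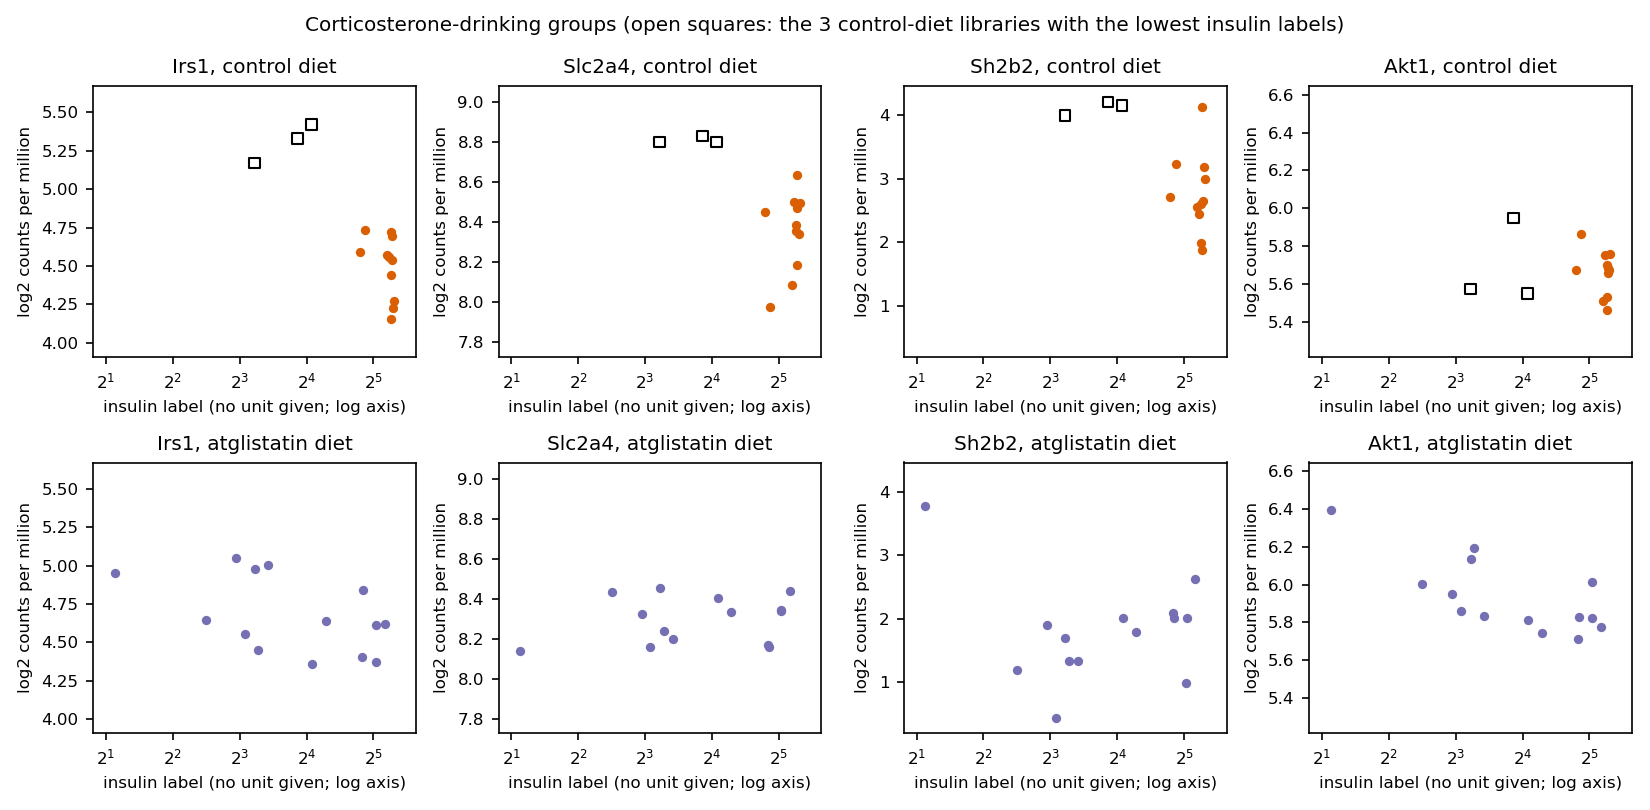
Level (log2 CPM) of Irs1, Slc2a4, Sh2b2 and Akt1 against the insulin label (no unit given, log axis) in the 14 Cort_CON and 14 Cort_ATGLi libraries, with p32, p33 and p34 as open squares. Levels quoted in this caption are in CPM, not log2. For Irs1 and Slc2a4 the 3 open squares lie at the top of Cort_CON, with Slc2a4 between 445.9 and 455.3 CPM, and for Sh2b2 a library of high insulin, p36 (17.4 CPM), lies among them.

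A correlation within groups, with two-sided permutation tests, gave no call for the 9 genes. In Cort_CON the Irs1 level had Pearson's r = -0.84 (permutation p = 0.0013, adjusted p = 0.140 over all genes) and Spearman's rho = -0.75 (permutation p = 0.0027, adjusted p = 0.140) with insulin over 14 libraries. Leaving out p32 and p33, the libraries farthest from the median insulin, r stayed at -0.84. Without p34 as well it was -0.44. For Slc2a4, r was -0.64 (permutation p = 0.012, adjusted p = 0.226) and rho -0.37, and r was -0.37 without p32 and p33 and 0.35 without all 3, so that relation rests on those libraries. For Sh2b2, r was -0.68 (permutation p = 0.0066, adjusted p = 0.179) and rho -0.38.

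In Cort_ATGLi insulin was spread more evenly, from 2.19 to 36.0. No member's slope passed by edgeR or limma voom, where 1.15% of all genes passed by edgeR. By edgeR 2 members had an unadjusted p below 0.05, as did 1459 of the 12592 genes tested. Akt1 had the smallest p (slope -0.12, SE 0.04, p = 0.00211, adjusted p = 0.104), with r = -0.74 (permutation p = 0.0026, adjusted p = 0.4933), rho = -0.60 (permutation p = 0.026) and r = -0.49 without p39 and p41. Sh2b2 had -0.26 (adjusted p = 0.331), which turned to 0.34 without p41, Irs1 -0.10 (adjusted p = 0.607) and Slc2a4 0.02 (adjusted p = 0.903). The difference between the 2 corticosterone groups' slopes, tested directly, passed for Slc2a4 (-0.27, SE 0.07, adjusted p = 0.0427), where 1.68% of all genes passed and 1.06% in the negative direction. Without p32, p33 and p34 that difference was 0.32 (adjusted p = 0.712), and without p01 and p41 it was -0.25 (adjusted p = 0.0963). Its call was also lost without any 1 of p30, p32, p33, p34 and p35 of Cort_CON and p39 and p41 of Cort_ATGLi. For Sh2b2 the slope difference was -0.49 (adjusted p = 0.438), and it passed without p01 and p41 (-1.11, adjusted p = 0.00569). It did not pass for Irs1 (-0.39, adjusted p = 0.147).

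In the vehicle groups, 0% of all genes passed for the slope in EtOH_CON and 0% in EtOH_ATGLi, by edgeR and by limma voom, and 144 and 246 genes had an unadjusted p below 0.05, none of them a member. A single slope fitted over all 4 groups called 0.635% of genes by edgeR, and no member by edgeR or limma voom. By edgeR 4 members had an unadjusted p below 0.05, as did 1345 of the 12592 genes tested. The nearest were Irs2 (-0.21, adjusted p = 0.167), Sh2b2 (-0.30, adjusted p = 0.184), Akt1 (-0.09, adjusted p = 0.184) and Irs1 (-0.17, adjusted p = 0.201). The 9 diabetic Cort_CON libraries against the 5 nondiabetic ones called 0% of genes by edgeR, limma voom and DESeq2, with 625 genes at an unadjusted p below 0.05. Slc2a4 was the 1 member among these (-0.28, SE 0.09, p = 0.00264, adjusted p = 0.864). Of the 3 libraries with the highest Slc2a4, p32 and p33 are nondiabetic and p34 is diabetic, and without all 3 the difference was -0.23 (SE 0.10).

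Other genes of the pathway were taken from 6 lists of 78 genes, of which 77 were measured and 76 tested. On the control diet 21 of the 76 rose with corticosterone and 12 fell, and with atglistatin 15 rose and 7 fell. Of all genes tested, 18.9% rose and 19.5% fell on the control diet, and with atglistatin 15% passed in each direction. Whether the counts of these lists differ from those shares was not tested. Among 15 targets and effectors of AKT, 6 rose and 0 fell on the control diet, and 4 rose and 0 fell with atglistatin. The transcription factor gene Foxo1, whose protein AKT keeps out of the nucleus, rose by 2.91 on the log2 scale (adjusted p = 5.83e-19), and by 2.26 (adjusted p = 3.11e-15) with atglistatin. Foxo3 rose by 1.29 (adjusted p = 1.10e-12) and 1.02 (adjusted p = 1.57e-09). Eif4ebp1, which encodes a brake on translation that insulin signalling releases, rose by 1.14 (adjusted p = 3.49e-05) and 1.39 (adjusted p = 2.17e-06).

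Of 12 phosphoinositide 3-kinase, AKT and mTOR complex genes besides the members, 3 rose and 2 fell on the control diet, and 2 rose and 1 fell with atglistatin. Pik3cd, a catalytic subunit best known from leukocytes, had a log2 change of -1.73 (adjusted p = 9.40e-17) and -1.21 (adjusted p = 3.15e-11) on the 2 diets. Of 6 macrophage and leukocyte markers 3 fell and 1 rose in the same comparisons, and the part of this in Pik3cd was not tested. Among 16 inhibitors of the pathway 5 rose and 2 fell, and 4 rose and 2 fell with atglistatin. Cblb, a ubiquitin ligase, rose by 1.07 (adjusted p = 2.25e-09) and 0.76 (adjusted p = 8.56e-06). Among 14 genes of GLUT4 traffic 4 rose and 2 fell, and 2 rose and 0 fell with atglistatin. Tbc1d1, the relative of Tbc1d4, rose by 0.79 (adjusted p = 3.05e-05) and 1.15 (adjusted p = 4.28e-08). Of 15 adaptor and MAPK branch genes 3 rose and 5 fell, and 3 rose and 3 fell with atglistatin. Of 4 ligands and receptors 1 fell on each diet, the growth factor gene Igf1 (-0.89 and -0.45).

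**Figure D5:**
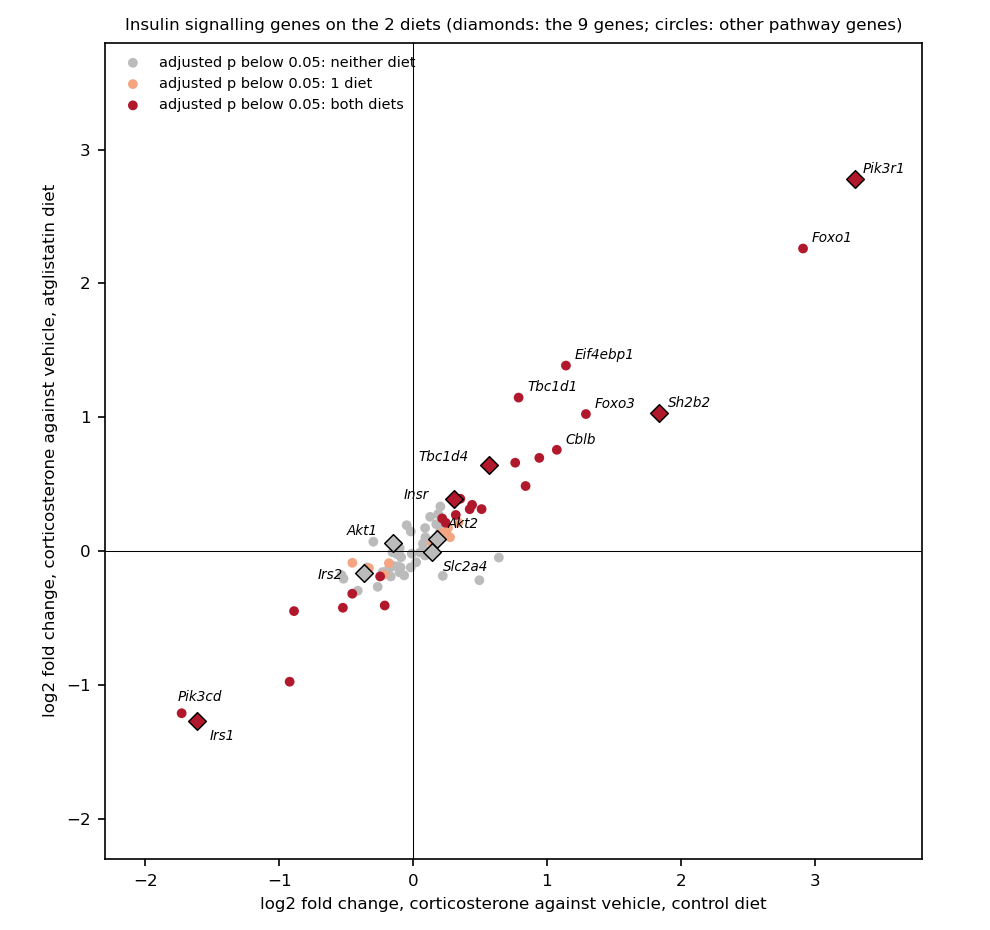
Log2 fold change of corticosterone against vehicle on the control diet (horizontal) and on the atglistatin diet (vertical) for the 9 genes (diamonds) and 76 other pathway genes (circles), coloured by the number of diets with an adjusted p below 0.05. Pik3r1 (3.30 and 2.78) and Foxo1 (2.91 and 2.26) lie farthest up, and Irs1 (-1.61 and -1.27) and Pik3cd (-1.73 and -1.21) farthest down.

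The pathway lists held no gene that passed for atglistatin under vehicle or for the interaction. Under corticosterone atglistatin raised Igf1r (0.50, adjusted p = 0.0417) and lowered Hras (-0.31, adjusted p = 0.0260), and without p32, p33 and p34 these were 0.42 (adjusted p = 0.190) and -0.24 (adjusted p = 0.176) and did not pass. The slope against insulin passed in Cort_CON for the phosphatase genes Ptpn1 (-0.40, adjusted p = 0.000651) and Ptprf (-1.34, adjusted p = 4.71e-05) and for Tbc1d1 (0.66, adjusted p = 0.000263). Without p32, p33 and p34 these slopes were 0.03 (adjusted p = 0.983), -1.56 (adjusted p = 0.527) and 1.13 (adjusted p = 0.335), and none of the 3 genes passed. In Cort_ATGLi it passed for Igf2 (-0.20, adjusted p = 0.0367) and for the insulin signalling inhibitor Socs3 (-0.88, adjusted p = 0.000121), and neither passed without p41.

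Within groups the correlations of the 9 genes with each other were read without a background of other gene pairs. With the group means removed, the highest correlation of log2 CPM between 2 of them over the 48 libraries was 0.54, between Insr and Tbc1d4, followed by 0.46 for Insr and Irs2 and 0.45 for Irs1 and Irs2. The lowest was -0.39, between Pik3r1 and Akt2. The gene most like each member by the same measure, out of 7618 whose mean reached 5 CPM, was Npc1 for Insr (r = 0.77), Slc39a14 for Sh2b2 (0.75), Tmed9 for Irs1 (0.68) and Midn for Irs2 (0.70). It was Filip1 for Pik3r1 (0.85), Card19 for Akt1 (0.66), Usf2 for Akt2 (0.86), Foxo3 for Tbc1d4 (0.69) and Faap100 for Slc2a4 (0.83). These values are descriptions over libraries that share depth and scaling.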

How the data were processed

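Raw counts per gene, deposited by the authors for 48 QuantSeq libraries of mouse gastrocnemius, were analysed. Per the submitters' processing notes, the build was GRCm38, with R 3.6.1 and DESeq2 1.24.0 in use. The sources used here name no aligner, counting program or gene annotation. In 47 libraries every count was even, and in EtOH_ATGLi p13 49.6% were odd, so halved counts were tried as well. All 272 pairs of libraries within a group differed by more than sampling noise (chi-square of at least 7.87 per degree of freedom). Depth, 10453888 to 24034481 counts, sets the precision of low genes. A second deposited table of normalized values was not used here.

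The filter filterByExpr, given the groups, used a minimum count of 10 and a minimum total of 15 and removed 1533 genes. All 48 libraries entered 1 fit of edgeR 4.0.16 (R 4.3.3, TMM, robust quasi-likelihood test, two-sided), with Benjamini-Hochberg adjustment over 12592 genes and a threshold of 0.05. SE was derived from the test, and intervals are 1.96 SE wide on each side. Insulin slopes used log2 of the label, centred within group. log2 CPM used a prior count of 2. Ratios of paired genes used permutation tests. limma 3.58.1 (voom) and DESeq2 1.42.0 were alternatives, with RLE scaling, no filter, insulin scales and left-out libraries. The scripts were checked on simulated data.

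Groups and replicate numbers came from the sample labels. Libraries of 2 groups with the same title number had correlations of -0.06 to 0.15. The own number was the best match for p13, p09 and p10 and not for p14, p11 and p12. With 2 and 4 shared numbers, this neither shows nor excludes that the numbers pair libraries, and they were treated as unpaired. The members and lists were chosen with earlier results of these data known. All 9 members were named in the text of each pairwise comparison except EtOH_ATGLi against EtOH_CON, where Irs1 alone was. Other pathway genes were named when past 0.05 with a fold of at least 2, and Igf1, Igf1r, Hras, Ptpn1, Ptprf, Igf2, Socs3 and the slope of Tbc1d1 were chosen after their values were seen. For each member the most alike gene is printed of the 3 the rule names. The exclusion of p32, p33 and p34 and the test of the slope difference were also added after the data were seen.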

Additional observations from a re-analysis of the deposited data

Results flagged for a closer look

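Library p01 of EtOH_CON lay apart from the 9 other libraries of its group in 2 of the 9 genes. Its Pik3r1 level of 7.21 CPM was the lowest, with the nearest library at 15.2 CPM, and the gap was 0.563 of the group's range, above Dixon's 95% critical value for 10 libraries. Its Akt1 level of 78.38 CPM was the highest, with the nearest at 62.0 CPM and a gap of 0.487 of the range. In all 18 combinations of a gene and a vehicle group were examined, and chance marks about 1 group in 20. The same library correlated least with its own group over all genes (median r 0.952), and no call of a group comparison among the 9 genes changed without it and p41.

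The slope of Slc2a4 against the insulin label differed between Cort_CON and Cort_ATGLi by -0.2677 (edgeR adjusted p = 0.0427). Without Cort_CON p32, p33 and p34 the Slc2a4 difference was 0.32 (adjusted p = 0.712), and without p01 and p41 it was -0.25 (adjusted p = 0.0963). The call was also lost without any 1 of 7 libraries, p30, p32, p33, p34 and p35 of Cort_CON and p39 and p41 of Cort_ATGLi.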

How the results depend on the processing

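The libraries whose title numbers occur in both atglistatin groups were fitted apart, for corticosterone on that diet, with and without a replicate block. Only 2 numbers, p13 and p14, are shared, so each fit held 2 libraries of each group. Fits this small cannot tell whether the calls of the full groups depend on pairing. With no block 3 members were called (2 higher, 1 lower), Irs2 being the lower one, and 1555 genes in all. Irs1 (-0.81, adjusted p = 0.438), Insr (adjusted p = 0.0679) and Sh2b2 (0.59, adjusted p = 0.343) were lost and Irs2 (-0.53, adjusted p = 0.0207) was gained. With the replicate block 6 were called, Irs1 (-0.74, adjusted p = 1.52e-05) and Insr (adjusted p = 0.0491) among them. Sh2b2 stayed lost (0.62, adjusted p = 0.338) and Irs2 gained (-0.53, adjusted p = 0.00888), and Akt2 was gained with the block alone (0.38, adjusted p = 0.0254). Cort_ATGLi against Cort_CON called 1 member (78 genes in all) in a fit of those 2 groups alone and 1 (98 genes) without p32, p33 and p34. The slope in Cort_CON called 4 members (464 genes in all) without p01 and p41 and 3 (332 genes) by limma voom. It called 1 (266 genes) with the rank of insulin and 1 (260 genes) with fed glucose as a second covariate. Without p32, p33 and p34 it called 0 members and 4 genes in all, against 337 genes in the main fit. The common slope called 1 (96 genes) with linear insulin (Irs1, adjusted p = 0.0397). The slope difference called 0 members with linear insulin (46 genes in all), with its rank (0 genes), with fed glucose (147 genes) and without p32, p33 and p34 (0 genes). Leaving out each library in turn gave 5 to 7 members for Cort_CON against EtOH_CON, 0 to 4 for the slope in Cort_CON, 0 to 1 for the common slope and 0 to 1 for the slope difference. The other counts did not move. The Irs1 slope was lost without p32 or p34 (highest adjusted p = 0.0860), and the Slc2a4 slope without p32, p33 or p34 (highest adjusted p = 0.138). Without p32, p33 and p34 together the Slc2a4 slope in Cort_CON was 0.34, the Slc2a4 slope difference 0.32, the Ptpn1 slope 0.0346 and the Ptpn1 slope difference 0.0371, each of the opposite sign. The cause was not tested. The calls of Pik3r1, Tbc1d4 and Akt1 in the group comparisons kept their direction in every setting, and Akt1 was lost with nondiabetic Cort_CON libraries alone.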
